A study of Mus musculus with 3 samples.

Results

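Collagen chain genes encode the polypeptides that wind into the triple helices of the extracellular matrix. They were taken here as every row of the deposited expression table whose gene symbol is Col, a number, the letter a and a number, which gave 44 of 52550 genes. All of them come from mouse cells in 1 group, labelled LepR+ and sorted as live fluorescent cells out of superior cervical ganglia (sympathetic ganglia at the top of the neck) of male mice aged 10 weeks. The genotype was LepRCRE::Ai32 in all samples: Cre recombinase under the leptin receptor gene switches on a fluorescent reporter for good, so a cell is marked if it or a forerunner made Cre, whether or not it still makes the receptor. The series title calls the cells sympathetic associated perineurial cells, the sheath cells around sympathetic nerve. The group has 3 libraries, which the labels call biological replicates, and no source used here gives the number of cells or animals behind each. With no second group there is no contrast between conditions, so each gene was set against a fixed level and against other chains in the same library.

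A collagen molecule is a trimer of chains, either of 1 gene or of several, and the class of chain decides the structure it builds. Fibrillar chains form the rope-like fibrils of connective tissue, type IV chains form the mesh of basement membranes, type VI chains form beaded filaments, and FACIT collagens sit on the surface of fibrils. In peripheral nerve, fibrillar collagens fill the spaces around axon bundles, while Schwann cells and perineurial cells are each coated by a basement membrane. Col28a1, a chain with von Willebrand factor A domains that is grouped here with other classes, is known from the surroundings of glia in peripheral nerve.

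The sequences just upstream of the 2 collagen genes with the highest mean level, Col28a1 and Col3a1, are shown first, each as the 250 bases before the gene's start. The third sequence is the whole gap between the starts of Col4a4 and Col4a3, neighbours whose order of levels changed between libraries. All are from RefSeq's GRCm38.p6, written 5′ to 3′. Col28a1 lies on the minus strand of chromosome 6 and its window is chr6:8192618-8192867. Col3a1 lies on the plus strand of chromosome 1 and its window is chr1:45311288-45311537. The gap is chr1:82586850-82586920, read on the minus strand, towards Col4a4. Capitals mark any match, on either strand, to 4 motifs. These were the TATA box, searched as TATAAA, the CCAAT box, the GC box, searched as GGGCGG, and the core of SOX sites, searched as ACAAAG.
Col28a1: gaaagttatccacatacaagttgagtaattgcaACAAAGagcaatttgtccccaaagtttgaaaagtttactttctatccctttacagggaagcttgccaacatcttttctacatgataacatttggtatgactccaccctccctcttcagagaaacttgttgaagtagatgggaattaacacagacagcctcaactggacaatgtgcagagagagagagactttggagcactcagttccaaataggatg
Col3a1: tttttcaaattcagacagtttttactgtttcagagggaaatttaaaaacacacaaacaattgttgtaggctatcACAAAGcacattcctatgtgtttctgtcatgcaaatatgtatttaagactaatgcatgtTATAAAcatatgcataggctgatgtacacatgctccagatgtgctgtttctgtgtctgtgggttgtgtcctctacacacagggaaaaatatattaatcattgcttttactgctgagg
Col4a4-Col4a3 gap: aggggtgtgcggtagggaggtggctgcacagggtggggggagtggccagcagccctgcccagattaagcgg

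The Col28a1 window held ACAAAG and none of the other motifs, and its GC content was 40.4%. The Col3a1 window held both ACAAAG and TATAAA, which do not overlap, at a GC content of 35.2%. The gap between Col4a4 and Col4a3 is 71 bases long, had a GC content of 69.0% and held none of the 4 motifs. Of 32851 upstream windows of 250 bases in the table, 16.5% held ACAAAG, 12.4% TATAAA, 33.8% CCAAT and 32.7% GGGCGG. Of the 44 collagen genes, 35 were in the table. Among their first windows, 4 held ACAAAG, 5 held TATAAA, 12 held CCAAT and 21 (60.0%) held GGGCGG, and the median GC content was 59.6%, against 52.4% for all windows. A match describes these letters only.

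Values are TPM (transcript abundance scaled to a fixed library total), which divide the reads on a gene by its length and by the library's total and so allow levels of different genes to be compared. The libraries held 8323897, 8087002 and 7740515 reads on genes, and 1 read on a gene of 1 kb was worth 0.391, 0.391 and 0.418 TPM. Each gene's mean was set against 1 TPM by limma's moderated test. Of 10 markers of perineurial cells, the labelled type, Cldn1, Sfrp5 and Tjp1 lay above that level. Lypd2, Moxd1, Ocln, Slc2a1 and Itgb4 passed in neither direction. Msln lay below, with 1 read in replicate 1 and none in the others, and Krt19 had no read. The summed perineurial markers were at 405, 623 and 405 TPM in replicates 1, 2 and 3. All 8 markers of satellite glia and Schwann cells lay above 1 TPM and summed to 19633 to 23269 TPM. Of 8 fibroblast markers, 5 lay above 1 TPM, Dpt lay below, Pdgfra passed in neither direction and Pi16 had no read. The fibroblast list summed to 6674 to 9082 TPM. Of all genes tested, 16.4% lay above 1 TPM. The endothelial list summed to 299 to 407 TPM, the mural list to 127 to 463 TPM and the sympathetic neuron list to 50.2 to 78.7 TPM, with no read on Npy. The macrophage list summed to 1.61, 85.1 and 102 TPM, with no read on Aif1. In such bulk samples, fewer cells of a type and less RNA per cell cannot be told apart, and which cells the collagen reads came from was not tested.

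Collagen transcripts were present across all 5 classes, led by Col28a1 and by fibrillar chains. Of the 44 genes, 43 had a read in at least 1 library and 35 had one in every library, against 27524 and 11181 of all 52550 genes. The collagen gene without a read was Col2a1, the main chain of cartilage fibrils, for which 3 reads, the most that a count of 0 allows, would be 0.196, 0.195 and 0.209 TPM in the 3 libraries. Smart-Seq2 reads are PCR copies that carry no molecular identifier, and this limit covers counting error only. By library, 22, 23 and 22 collagen genes were at 1 TPM or more, and 18, 21 and 17 at 5 TPM or more. Shares of all genes at these levels were not taken by library. In at least 1 library, 23 of the 44 reached 5 TPM, against 12069 of all 52550 genes. Together the 44 genes held 1696, 1493 and 1146 TPM in replicates 1, 2 and 3, which is 0.145% ± 0.0278 of all TPM (SD, n = 3).

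For the test, each gene's mean log2(TPM + 1) was compared with its value at 1 TPM, a scale that understates differences of low genes (limma, two-sided, Benjamini-Hochberg over 27528 genes). Of the 43 collagen genes tested, 14 (32.6%) lay above 1 TPM, against 16.4% of all genes tested. Another 10 (23.3%) lay below it, against 19.0% of all genes, and 19 passed in neither direction. All genes tested include noncoding ones, whereas the collagen genes are all protein-coding, and shares among coding genes alone were not taken. By a plain count, 19 of the 43 had at least 1 TPM and a read in every library, against 23.6% of all genes tested. The median of mean log2(TPM + 1) was 1.67 over the 43 and 0.88 over all genes tested. The calls depended on having 3 libraries. Without replicate 1, limma called 0 collagen genes above 1 TPM (12 at an unadjusted p under 0.05), and without replicate 2 it called 0 (13 unadjusted), in both cases with 0 genes called above in the whole table (4642 and 4445 unadjusted). Without replicate 3, with 2453 genes called above in the whole table, it called 6 collagen genes. The genes below 1 TPM numbered 0 (11 unadjusted), 0 (14 unadjusted) and 6 in the same order, and 0 (12 unadjusted) with TPM rescaled without mitochondrially encoded genes, which left the 14 above as they were. In the whole table, genes called below numbered 5225 with all libraries, 0 (7872 unadjusted), 0 (8204 unadjusted) and 5089 without replicates 1, 2 and 3 in turn, and 0 (6649 unadjusted) after rescaling.

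**Figure D1:**
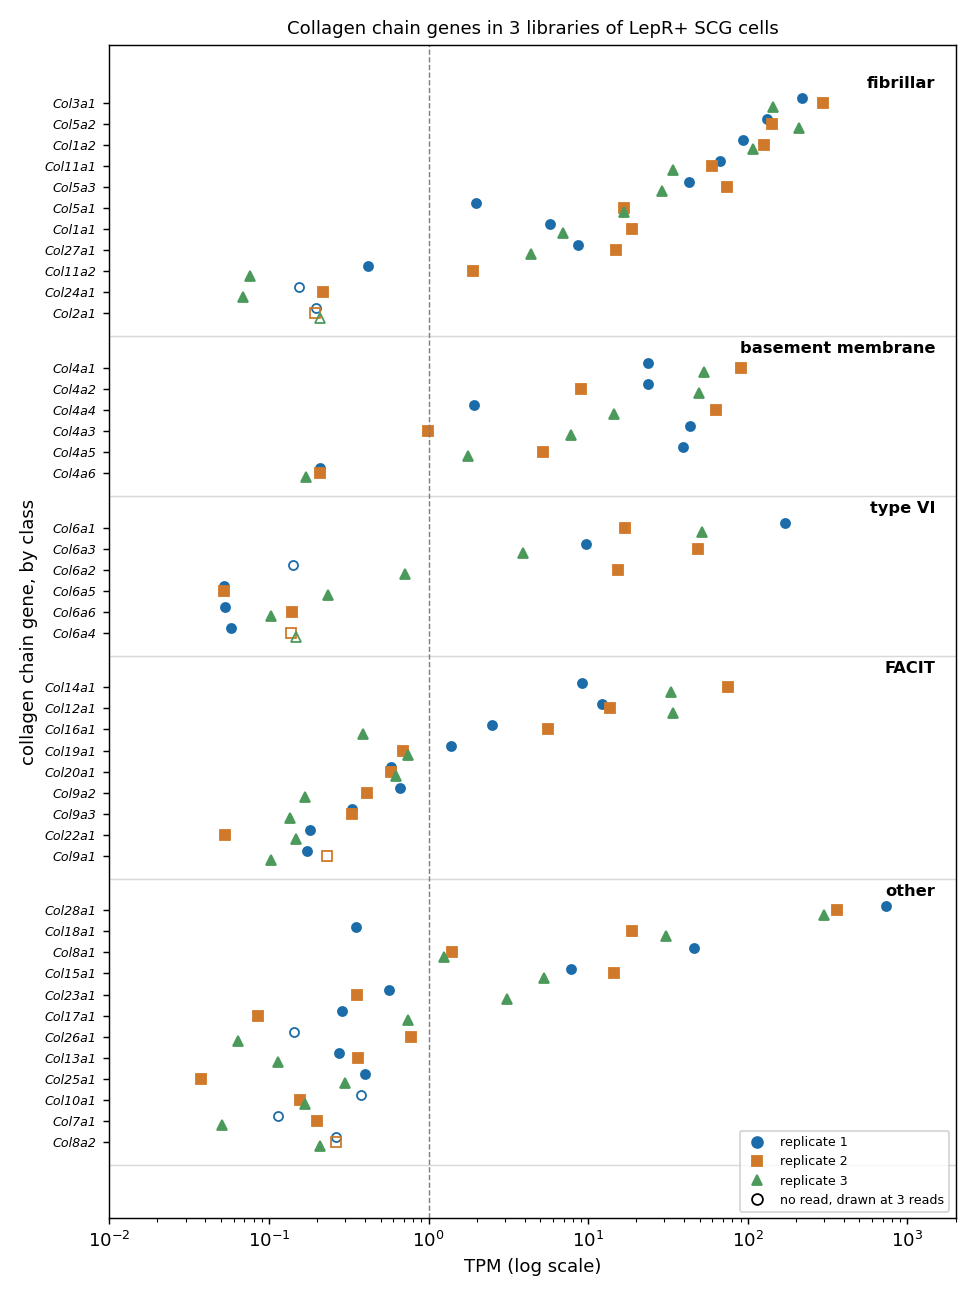
TPM of each of the 44 collagen chain genes (rows, ordered by mean within class) in each of the 3 libraries, on a log axis. The dashed line is 1 TPM, and an open symbol marks a library with no read, drawn at the value of 3 reads. Col28a1 and the leading fibrillar chains lie well to the right in all 3 libraries, while Col4a3, Col4a4, Col6a2, Col8a1 and Col18a1 are spread widely.

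Fibrillar chains made up the largest class by mean summed level and in replicates 2 and 3, while in replicate 1 the class that holds Col28a1 was larger (786 TPM). Fibrillar chains summed to 570.2, 750.6 and 553 TPM, or 44.0% ± 9.08 of the collagen TPM (SD, n = 3). Of 11 fibrillar genes, 10 were tested, 7 (70.0%) lay above 1 TPM, 1 (10.0%) lay below and 2 passed in neither direction. Of all genes tested, 16.4% lay above and 19.0% below. The 7 were Col3a1, Col5a2, Col1a2, Col11a1, Col5a3, Col1a1 and Col27a1. The summed fibroblast markers were at 6674, 9082 and 8044 TPM, but the single markers did not share 1 order of libraries: Dcn and Apod were highest in replicate 2, Lum in replicate 3, and Mfap5, Pdgfrb and Pdgfra in replicate 1. The part of such cells in the fibrillar sum was not tested.

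Col3a1 (ENSMUSG00000026043.18, chr1:45311538-45349706, plus strand), the single chain of type III collagen, which is common in soft and stretchy tissue, was at 219, 297 and 144 TPM in replicates 1, 2 and 3. All 3 libraries were far above 1 TPM, and the tested difference was 6.73 ± 0.28 in log2(TPM + 1) (SE; limma adjusted p = 0.00424). Col1a2, a chain of type I collagen, the main fibril of skin and tendon, was at 92.7, 126 and 108 TPM. It had the smallest spread of any collagen gene averaging 5 TPM or more, and its adjusted p by limma was 0.00359. Col1a1, its partner in the type I trimer, was at 5.74, 18.7 and 6.96 TPM (limma adjusted p = 0.0428), low in all 3 libraries beside Col1a2.

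The Col5a and Col11a genes, whose type V and type XI chains start fibrils and limit their width, each had a read in every library. Col5a2 (ENSMUSG00000026042.16, chr1:45374321-45503282, minus strand) was at 132, 142 and 210.2 TPM, the second highest fibrillar chain (difference 6.31 ± 0.22, SE, limma adjusted p = 0.00365). Col5a3, a type V chain known from Schwann cells, was at 43.1, 73.8 and 29.2 TPM (limma adjusted p = 0.0101). Col5a1, the chain found in most type V trimers, was at 1.99, 16.8 and 16.8 TPM, low in replicate 1 and alike in the other libraries, and did not pass (limma adjusted p = 0.0897). Col11a1, known best from cartilage, was at 66.6, 59.3 and 33.7 TPM (limma adjusted p = 0.00677). Col11a2 was far lower, at 0.415, 1.90 and 0.0765 TPM, and passed in neither direction.

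Of the remaining fibrillar genes, Col27a1, which forms thin fibrils in cartilage, was at 8.57, 15.0 and 4.37 TPM (limma adjusted p = 0.0428). Col24a1, known from bone, had 0, 4 and 1 reads and lay below 1 TPM. The adjusted p of 0.0428 was shared by 6 of the 14 genes above 1 TPM, namely Col1a1, Col27a1, Col4a2, Col6a1, Col14a1 and Col15a1, and all 6 lost the call when the fit was limited to genes averaging 0.5 TPM or more.

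**Figure D2:**
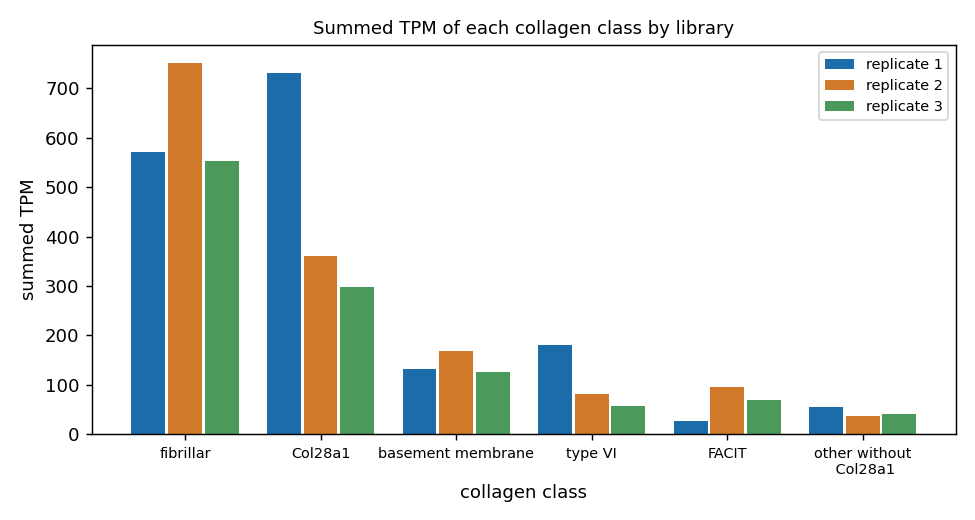
Summed TPM of each collagen class in each of the 3 libraries (bars from 0, 1 bar a library), with Col28a1 drawn apart from the rest of its class. Fibrillar chains lie between 553 and 750.6 TPM, and Col28a1 alone reaches 730 TPM in replicate 1.

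Basement membrane chains summed to 132, 169 and 127 TPM. Of the 6 type IV genes, Col4a1 and Col4a2 lay above 1 TPM, Col4a6 lay below, and Col4a3, Col4a4 and Col4a5 passed in neither direction. That is 33.3% above and 16.7% below, against 16.4% and 19.0% of all genes tested. Col4a1 and Col4a2 together make the type IV trimer found in nearly all basement membranes. Col4a1 (ENSMUSG00000031502.11) was at 23.7, 90.5 and 52.9 TPM, a difference of 4.63 ± 0.46 (SE; limma adjusted p = 0.0183). Col4a2 was at 23.5, 8.99 and 49.6 TPM (limma adjusted p = 0.0428), so that the library highest for Col4a1 was the lowest for Col4a2.

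Col4a3, Col4a4 and Col4a5 make the trimer of the kidney filter, whose loss causes Alport syndrome. Col4a3 was at 43.6, 0.990 and 7.85 TPM. Col4a4 was at 1.93, 63.2 and 14.5 TPM, high where Col4a3 was low. Their limma adjusted p-values were 0.198 and 0.127. Both differed by more than 10-fold between libraries, as did 51.6% of all genes averaging 5 TPM or more. Col4a5 was at 39.5, 5.19 and 1.76 TPM (limma adjusted p = 0.171), highest in replicate 1 like Col4a3. Col4a6, which joins Col4a5 in some basement membranes such as those of smooth muscle, had 4, 4 and 3 reads (0.209, 0.208 and 0.170 TPM).

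These 6 genes lie as 3 head-to-head pairs, each with its starts side by side and its genes running apart. Col4a4 (chr1:82448423-82586849) and Col4a3 (chr1:82586921-82722059) are separated by the 71 bases printed above. Col4a1 and Col4a2 on chromosome 8 overlap by 22 bases, and Col4a6 and Col4a5 on chromosome X are 1308 bases apart. No source used here gives the strand setting of the read counting, so reads in the 22 shared bases cannot be assigned, but these are 0.295% of the exon bases of Col4a1. Of the exon bases of Col4a3, 5.65% are shared with C430014B12Rik, a gene on the opposite strand with a mean of 0.440 TPM.

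Type VI chains summed to 180, 81.1 and 56.6 TPM. Col6a1, Col6a2 and Col6a3 form the usual type VI trimer, while Col6a4, Col6a5 and Col6a6 encode chains that can take the place of the Col6a3 product. Of the 6 genes, Col6a1 lay above 1 TPM and Col6a4, Col6a5 and Col6a6 lay below. Col6a1 (ENSMUSG00000001119.7) was at 170, 16.9 and 51.6 TPM (limma adjusted p = 0.0428). Col6a3 was at 9.66, 48.6 and 3.92 TPM (limma adjusted p = 0.0796). Col6a2 had 0, 328 and 14 reads, the last 2 worth 15.4 and 0.715 TPM, and passed in neither direction (limma adjusted p = 0.655). The chains of 1 trimer were thus highest in different libraries, Col6a1 in replicate 1, and Col6a2 and Col6a3 in replicate 2. Each differed by more than 10-fold between libraries, as did 51.6% of all genes averaging 5 TPM or more. Col6a4, Col6a5 and Col6a6 had at most 5 reads in any library.

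FACIT collagens summed to 27.2, 96.2 and 69.4 TPM, mostly from 2 of their 9 genes. Col14a1, which coats fibrils, was at 9.17, 74.9 and 33.0 TPM (limma adjusted p = 0.0428). Col12a1, a large chain that links fibrils to their surroundings, was at 12.2, 13.6 and 34.2 TPM (limma adjusted p = 0.0271). These were the FACIT genes above 1 TPM (22.2%, against 16.4% of all genes tested). Col16a1 was at 2.51, 5.57 and 0.387 TPM and passed in neither direction (limma adjusted p = 0.401). Col19a1 was at 1.38, 0.695 and 0.743 TPM, and Col20a1 had 6 reads in each library. The type IX genes of cartilage were near the limit of detection, with at most 5 reads for Col9a2, 3 for Col9a3 and 2 for Col9a1. Col22a1, known from the junction of muscle and tendon, had 4, 1 and 3 reads. Col9a1 and Col22a1 (22.2%, against 19.0% of all genes tested) lay below 1 TPM. Col9a2, Col9a3, Col19a1 and Col20a1 passed in neither direction.

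The remaining 12 genes summed to 786, 397 and 340 TPM, of which Col28a1 took most. Col28a1 (ENSMUSG00000068794.7, chr6:7997808-8192617, minus strand) was at 730, 360 and 298 TPM, or 9146, 4518 and 3500 reads. Every library held far more than 1 TPM, and replicate 1 held more than the others. The mean was 463 ± 233 TPM (SD, n = 3), the difference from 1 TPM was 7.74 ± 0.35 (SE; limma adjusted p = 0.00453), and Col28a1 ranked 198th by mean level among the 52550 genes. It held 43.0%, 24.1% and 26.0% of the collagen TPM of replicates 1, 2 and 3. Without it the share of all TPM held by collagens was 0.0982%.

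Col15a1 and Col18a1 are the multiplexins, basement membrane collagens that carry sugar chains, and Col18a1 is the source of endostatin. Col15a1 was at 7.78, 14.4 and 5.28 TPM and lay above 1 TPM (limma adjusted p = 0.0428). Col18a1 was at 0.348, 18.8 and 30.8 TPM, near 0 in replicate 1 only, and passed in neither direction (limma adjusted p = 0.222). The short-chain collagens form nets, as in the cornea and around vessels. Among them, Col8a1 was at 46.3, 1.40 and 1.25 TPM, high in replicate 1 only (limma adjusted p = 0.340). Col8a2 had 0, 0 and 2 reads, and Col10a1, a marker of cartilage turning to bone, had 0, 1 and 1.

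Of the membrane-spanning collagens, Col23a1 was at 0.563, 0.358 and 3.08 TPM. Col13a1, which acts at the nerve-muscle synapse, had 3, 4 and 1 reads. Col17a1, part of the hemidesmosome of skin, had 4, 1 and 10 reads, and Col25a1 had 13, 1 and 9. None of these 4 passed limma's test in either direction, with unadjusted p under 0.05 for Col13a1 and Col25a1. Col7a1, the anchoring fibril of skin, had 0, 5 and 1 reads and lay below 1 TPM with Col8a2 and Col10a1. Col26a1 had 0, 16 and 1 reads and passed in neither direction.

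Chains that share a trimer or a class were compared as log2 ratios of TPM within each library, over 7 pairs. With 3 libraries an exact two-sided sign-flip test cannot go below p = 0.25, or 0.35 after adjustment over the 7 pairs, so no pair could pass. Type I chains were unequal in all 3 libraries: Col1a2 was 16.2, 6.74 and 15.5 times Col1a1, a mean log2 ratio of Col1a1 to Col1a2 of -3.57 ± 0.71 (SD, n = 3; exact p = 0.25). The usual type I trimer holds more of the Col1a1 product than of the Col1a2 product. TPM was computed over all annotated exons of a gene. With reads divided by the longest coding transcript instead, an alternative added after the data were seen, Col1a2 was 34.0, 14.2 and 32.7 times Col1a1, the same order by a wider margin.

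Col3a1 was 2.36, 2.35 and 1.33 times Col1a2 (log2 0.96 ± 0.48, SD, n = 3; exact p = 0.25). With reads over the longest coding transcript, Col3a1 was 1.80, 1.79 and 1.01 times Col1a2. The size thus depended on the length used, and these chains were about equal in replicate 3 by that length. The type V chains were unequal in all 3 libraries too. Col5a2 was 66.1, 8.45 and 12.5 times Col5a1, a mean log2 ratio of Col5a1 to Col5a2 of -4.26 ± 1.58 (SD, n = 3; exact p = 0.25). The type IV pair was close to equal in 2 of 3 libraries: Col4a1 was 1.01, 10.1 and 1.07 times Col4a2 (log2 1.15 ± 1.89, SD, n = 3; exact p = 0.25). Without replicate 2 that mean was 0.05.

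Ratios of type VI chains varied widely between libraries. Ratios between other genes were not taken. As single genes, 51.6% of all those averaging 5 TPM or more differed by more than 10-fold between libraries. Col6a1 was at least 1206-fold higher than Col6a2 in replicate 1, where 3 reads stand in for the 0 reads of Col6a2, and was 1.10 and 72.2 times Col6a2 in replicates 2 and 3 (exact p = 0.25). With reads over the longest coding transcript, the same values became at least 719.9-fold, 0.654 times and 43.9 times, so the size depended on the length used and the order turned in replicate 2. Col6a3 exceeded Col6a1 in replicate 2, by 2.88 times, and lay 17.6-fold and 13.2-fold below it in replicates 1 and 3 (exact p = 0.5). Col15a1 was 22.3, 0.768 and 0.172 times Col18a1, with a mean log2 ratio of 0.52 ± 3.60 (SD, n = 3; exact p = 1.0) that turned to -1.46 without replicate 1.

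The head-to-head type IV pairs were added after their values were seen and have no test. Col4a3 was 22.6 times Col4a4 in replicate 1, while Col4a4 was 63.8 times Col4a3 in replicate 2 and 1.85 times in replicate 3. Col4a5 exceeded Col4a6 in all 3 libraries, by 189, 24.9 and 10.3 times. Col4a3 and Col4a4, whose starts lie on either side of a short gap, thus showed no common order of libraries. Wide differences between libraries were common in the table, at more than 10-fold in 51.6% of genes averaging 5 TPM or more.

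**Figure D3:**
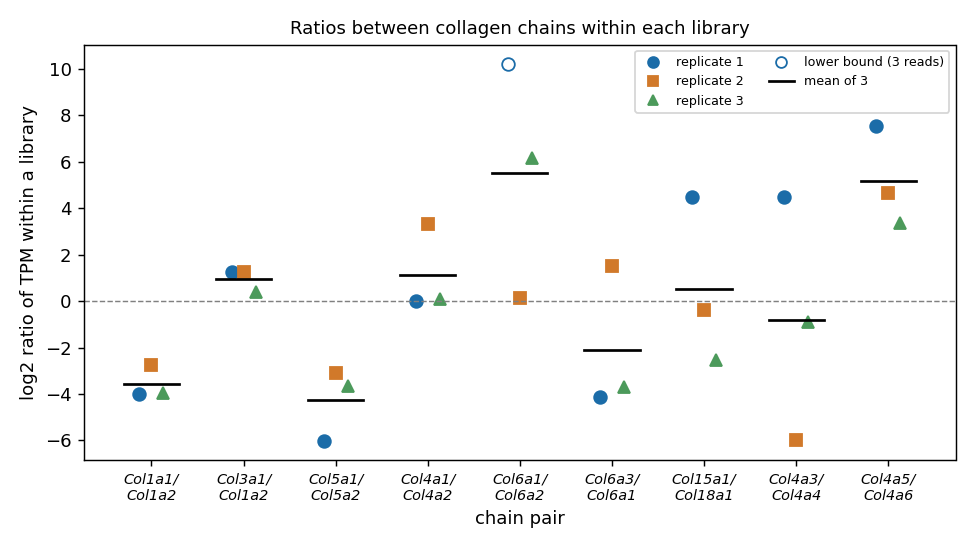
The log2 ratio of TPM between collagen chains within each library (symbols) and the mean of 3 libraries (bars), for 7 planned pairs and, at the right, 2 pairs added after the values were seen. The dashed line is equality and the open symbol is a lower bound; Col1a1/Col1a2 and Col5a1/Col5a2 lie below it in all 3 libraries, while Col6a3/Col6a1, Col15a1/Col18a1 and Col4a3/Col4a4 fall on both sides.

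Spread between libraries differed from gene to gene. Among the 22 collagen genes that averaged 5 TPM or more, the SD of log2 TPM had a median of 1.10, against 1.84 over 10128 genes at that level, with values under 3 reads set to 3 reads. The smallest were those of Col1a2 (SD 0.22, 1.36-fold from lowest to highest library), Col5a2 (0.36, 1.59-fold) and Col11a1 (0.52, 1.97-fold). The largest were those of Col18a1 (3.54, 88.4-fold), Col6a2 (3.44, at least 109-fold) and Col8a1 (2.96, 37.1-fold). The steadiest 3 were fibrillar chains with means of 53.2 TPM or more, and the most variable 3 had means of 16.6 TPM or less. Of the 22, 8 (36.4%) differed by more than 10-fold between libraries, against 51.6% of all genes at that level, and 8 (36.4%) by less than 3-fold, against 25.5%.

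Genes of a higher level had a smaller spread in the table as a whole. In the 7 collagen genes averaging 50 TPM or more the median SD was 0.53, against 0.93 over 3439 genes. In the 6 with a mean from 20 to 50 TPM it was 1.38, against 2.14 over 2915 genes, and in the 9 with a mean from 5 to 20 TPM it was 2.28, against 2.59 over 3774 genes. Of the 22 genes, 6 were highest in replicate 1, 11 in replicate 2 and 5 in replicate 3, so that no library was highest for most of them.

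Genes that make, release and bind collagen were counted in 5 lists holding 80 genes of the table, of which 77 were tested. Of these, 37 (48.1%) lay above 1 TPM by limma's test, against 16.4% of all genes tested, noncoding ones included. Another 7 (9.09%) lay below, against 19.0%. Without replicates 1, 2 and 3 in turn, the number above was 0 (36 unadjusted), 0 (39 unadjusted) and 24, against 0, 0 and 2453 over all genes tested. Of 23 genes that fold and modify chains in the endoplasmic reticulum, 12 (52.2%) lay above 1 TPM and 1 (4.35%), Creb3l1, lay below. The highest 5 were Sparc, P4hb, Fkbp7, Crtap and Fkbp14. Sparc, a collagen-binding chaperone and matrix protein, was at 824, 803 and 588 TPM. P4hb, a subunit of prolyl 4-hydroxylase, was at 120, 372 and 651 TPM, and Fkbp7, a prolyl isomerase, at 314, 286 and 314 TPM. These passed, while the other two were each near 1 TPM in 1 library. Crtap, which helps to hydroxylate fibrillar chains, was at 156, 0.937 and 213 TPM, and Fkbp14, a further isomerase, was at 0.401, 69.3 and 214 TPM.

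Of 19 genes for export, trimming and crosslinking, 5 lay above 1 TPM, 3 (Tll2, Adamts14 and Adamts3) lay below, and Lox and Loxl4 had no read. Over the 17 tested, that is 29.4% above and 17.6% below, against 16.4% and 19.0% of all genes tested. Lox makes the main enzyme that crosslinks collagen fibrils. Sar1b, a small GTPase of the vesicles that carry collagen out of the endoplasmic reticulum, was at 540 to 744 TPM, and Sar1a at 108 to 393 TPM. Pxdn, peroxidasin, which crosslinks type IV collagen, was at 184, 186 and 78.6 TPM, and the vesicle coat gene Sec23a at 42.2, 82.4 and 10.0 TPM. The fifth gene above 1 TPM was Mia3, a receptor for collagen cargo. Bmp1, the enzyme that trims the tail of fibrillar chains, was at 18.7, 174 and 10.0 TPM and did not pass (limma adjusted p = 0.0588).

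Of 14 collagen receptors, 5 (35.7%, against 16.4% of all genes tested) lay above 1 TPM. Gp6 and Mag (14.3%, against 19.0%) lay below. The 5 above were also the highest of the list. Itgb1, the beta subunit shared by collagen-binding integrins, was at 249, 225 and 415 TPM. Its partners Itga1 and Itga2 were at 56.6 to 86.5 TPM and 19.2 to 85.4 TPM. Adgrg6, an adhesion receptor of Schwann cells that binds type IV collagen, was at 132, 83.4 and 97.1 TPM. Adgrg1, a receptor for type III collagen, was at 55.5, 59.6 and 44.4 TPM.

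Of 14 fibril-binding partners, 13 were tested, 7 (53.8%) lay above 1 TPM and Dpt (7.69%) lay below, and Fmod had no read. Of all genes tested, 16.4% lay above and 19.0% below. Dcn and Lum, small proteoglycans that space fibrils and that are also in the fibroblast list, were at 3166 to 4433 TPM and 949 to 2574 TPM. Ogn, of the same family, was at 560 to 1369 TPM and Postn, which binds fibrils and cells, at 130 to 227 TPM. Thbs2, which affects fibril shape, was at 1.47, 165 and 108 TPM and did not pass (limma adjusted p = 0.131). Of 12 basement membrane partners, 10 (83.3%) lay above 1 TPM, and Hspg2 and Lama5 passed in neither direction. Besides Sparc and Pxdn, which are in 2 lists each, the highest were Nid1, which bridges laminin and type IV collagen, at 268 to 447 TPM, and the laminin chains Lama4, at 83.2 to 173 TPM, and Lama2, at 80.8 to 182 TPM.

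**Figure D4:**
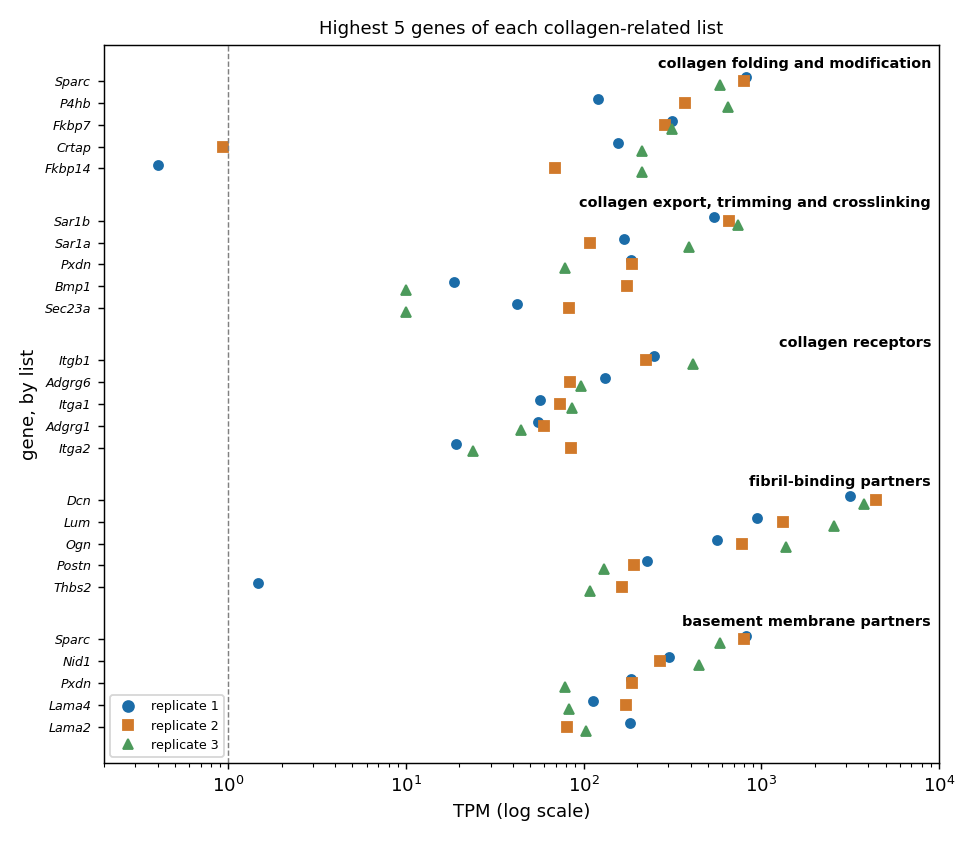
TPM of the 5 highest genes of each list of collagen-related genes in each of the 3 libraries, on a log axis, with the dashed line at 1 TPM. Sparc and Pxdn appear in 2 lists. Crtap in replicate 2 and Fkbp14 in replicate 1 lie below 1 TPM, and the other points lie above it.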

How the data were processed

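The authors deposited log2 TPM per gene for 3 libraries made by Smart-Seq2, per the labels' protocols. The submitters' processing notes name STAR, featureCounts and the build mm10 (GRCm38). No source used here gives their versions, the strand setting or the annotation. The collagen genes and all lists were chosen with earlier results of these data known.

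From the values, TPM was found to be (reads + 0.25) over exon length. With exon lengths from GENCODE M21, reads came out whole within 0.02 of a read in all libraries for 52543 of 52550 genes (99.99%), for 2752 of them with a length solved from the values. A library without a read therefore holds a small value, and its reads are given instead. Tests used TPM as deposited. The mean of log2(TPM + 1) over libraries was compared with the value that 1 TPM takes, using limma 3.58.1 (R 4.3.3, prior degrees of freedom 1.12), Benjamini-Hochberg adjusted over 27528 genes at a threshold of 0.05, and the script was tested on simulated data. These genes had a read in at least 1 library, apart from 4 whose reads were not recovered. Ratios used exact sign-flip tests, with values under 3 reads set to 3. Mitochondrially encoded genes held 19.88% to 21.1% of TPM. Named with values in every library were collagen genes at 5 TPM or more in at least 1 library, and the 5 highest of each related list. Others, such as related genes below 1 TPM or outside those 5, were named after their values were seen. Of 20 listed export genes, 19 were matched by symbol. Alternatives changed the pseudocount, filter, level, trend, scaling and libraries. P-values measure the spread between these 3 libraries only. Python 3.11.15, numpy 2.4.6, pandas 2.3.3, scipy 1.17.1 and matplotlib 3.10.9 were used.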

Additional observations from a re-analysis of the deposited data

How the results depend on the processing

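No paired analysis was possible because the series has 1 group. The number of collagen genes above 1 TPM, 14 by limma, was 8 with genes of a mean under 0.5 TPM left out, 9 against a level of 5 TPM and 0 to 6 with 1 library left out. The number below, 10, was 0 with that filter (1 at an unadjusted p under 0.05), which leaves out most genes so low, 0 against a level of 0.5 TPM (1 unadjusted), 19 against 5 TPM, 0 with TPM rescaled without mitochondrially encoded genes (12 unadjusted), which raised log2 TPM by a median of 0.33 over libraries and moved low genes less on the tested scale (Col6a4 from -0.96 to -0.95, Col4a6 from -0.74 to -0.68), and 0 to 6 with 1 library left out. In the whole table, genes called above numbered 4526 of 27528 in the main fit and 3519 of 22425 with that filter. Against 5 TPM they numbered 3629, and with 1 library left out 0 to 2453. Genes called below in the whole table numbered 5225, 15 with that filter, 0 against 0.5 TPM (1568 unadjusted) and 14073 against 5 TPM. After rescaling they numbered 0 (6649 unadjusted), and with 1 library left out 0 to 5089. The 37 related genes above 1 TPM became 0 to 24 with 1 library left out. With nothing added to TPM, 11 of the 14 collagen genes kept their call, and Col15a1, Col1a1 and Col27a1 lost it; with a mean-variance trend the same 3 lost it and Col4a4 and Col6a3 gained one. The cause was not tested, other than that leaving out a library leaves 2. The mean log2 ratio of Col15a1 to Col18a1 ranged from -1.46 to 2.05 with 1 library left out and changed sign; the other 6 ratios kept their sign under the alternatives run. The collagen share of TPM, 0.145%, was 0.182% with rescaled TPM and 0.0982% without Col28a1. At 0.391 to 0.418 TPM for a read on 1 kb, levels of the 10 genes below 1 TPM rest on 5 reads or fewer a library, and an order among them was not detectable at this depth.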
